A study of Homo sapiens with 9 samples.

Results

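Messenger RNA levels of 9 genes that write, read and remove DNA methylation were followed across 2 human esophageal squamous carcinoma cell lines, Kyse150 and TE11. The genes were taken from a list of names that uses no measured value, although it was drawn up with earlier results of these data known: DNMT1, DNMT3A, DNMT3B, UHRF1, TET1, TET2, TET3, MBD2 and TDG. They were matched to 8 of the 57820 identifiers counted in Kyse150 and to 9 of the 60683 counted in TE11. Of the 9, 8 were matched by symbol to an identifier in both count tables. The identifier paired with UHRF1 was matched in the TE11 table alone. The Kyse150 table holds an older identifier of this gene that the gene names used here pair with no symbol. The level of UHRF1 in Kyse150 was therefore not analysed here, and the Kyse150 counts of members leave it out. All matched members passed the filter on low counts.

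DNA methyltransferases add a methyl group to cytosine, mostly where it precedes guanine (a CpG site). DNMT1 copies the pattern onto the new strand at replication, with UHRF1 bringing it to half-methylated sites, whereas DNMT3A and DNMT3B set new methylation. The TET dioxygenases oxidise methylated cytosine, TDG cuts out the more oxidised forms for base excision repair to replace, and MBD2 binds methylated CpG sites and carries the NuRD deacetylase complex to them.

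Cells of both lines had received, by lentivirus, either shNC (the control hairpin) or shKDM2A, a hairpin directed at KDM2A. KDM2A is a histone H3 demethylase whose CXXC zinc finger binds unmethylated CpG sites. Kyse150 was sequenced in 2 shNC and 2 shKDM2A libraries, here called controls and knockdowns. TE11 was sequenced in 3 shNC libraries and in 2 that carry the label shKDM2A. The labels speak of independent replicates without saying whether these were separate infections, so the tests measure a spread that may be technical only, and they name no clone. Counts on genes came to 6052883 to 12073098 per library.

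KDM2A stood at 0.611 of control in the Kyse150 knockdowns (edgeR adjusted p = 3.87e-09) but at 1.12 times control in the libraries labelled TE11 knockdown (edgeR adjusted p = 0.0335). The target gene therefore goes against the label of those 2 libraries, and each TE11 direction below is between libraries as labelled. Over 15895 genes tested in both tables, the libraries labelled TE11 knockdown lay nearer to the Kyse150 controls than to the TE11 controls in mean level for 65.4%. TP63, a squamous lineage factor, was present in both lines, at 103 CPM in the Kyse150 controls and 223 CPM in the TE11 controls (CPM, counts on the gene relative to the library's total, scaled within a line). The 8 leukocyte markers summed to 2.48 to 2.83 CPM in the Kyse150 controls and 4.77 to 4.85 CPM in the knockdowns, and to 1.92 to 2.48 CPM and 1.98 to 3.12 CPM in the TE11 groups. PTPRC and MS4A1 of that list were at 0 in every library, and CSF1R, its 1 tested gene, went from 1.22 to 3.40 CPM in Kyse150 (edgeR adjusted p = 0.00508). The 12 squamous markers summed to 2564 to 2625 CPM in the Kyse150 controls and 2467 to 2481 CPM in the knockdowns. In TE11 they summed to 5202 to 5687 CPM in the controls against 2497 to 2544 CPM in the libraries labelled knockdown. These sums hide moves both ways. In Kyse150, 5 of 11 tested squamous markers were higher and 2 lower, and in TE11, 3 of 12 were higher and 8 lower. KRT5 alone measured 1228 and 1041 CPM in the Kyse150 groups and 2684 and 1008 CPM in the TE11 groups. The 8 fibroblast markers summed to 6.37 to 6.70 CPM and 11 to 11.8 CPM in the same Kyse150 groups, and to 27.4 to 29.7 CPM and 2.68 to 3.67 CPM in the TE11 groups. The 8 endothelial markers (7 of them matched in Kyse150) summed to 16.3 to 21.0 CPM and 39.9 to 40.3 CPM in Kyse150. In TE11 they summed to 68.3 to 76.5 CPM and 12.7 to 12.9 CPM. Most of this was EGFL7, at 15.8 and 36.3 CPM in the Kyse150 groups and 63.0 and 11.2 CPM in the TE11 groups. The part of these markers in the results was not tested.

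In the Kyse150 knockdowns the maintenance enzyme DNMT1, the dioxygenases TET2 and TET3 and the glycosylase TDG fell, with TDG and TET2 near 0.5 of control. The reader MBD2 stood at 1.01 and the de novo enzyme DNMT3B at 1.07 of control, and neither passed the test. The lowly expressed DNMT3A and TET1 rose, on calls that did not hold in every fit. Of the 8 members tested, 4 were lower and 2 higher (edgeR quasi-likelihood, adjusted p under 0.05), where 23.3% of all 14060 genes tested were lower and 24.8% higher. The median log2 fold change was -0.16 over the members and 0.00 over all genes tested.

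**Figure D1:**
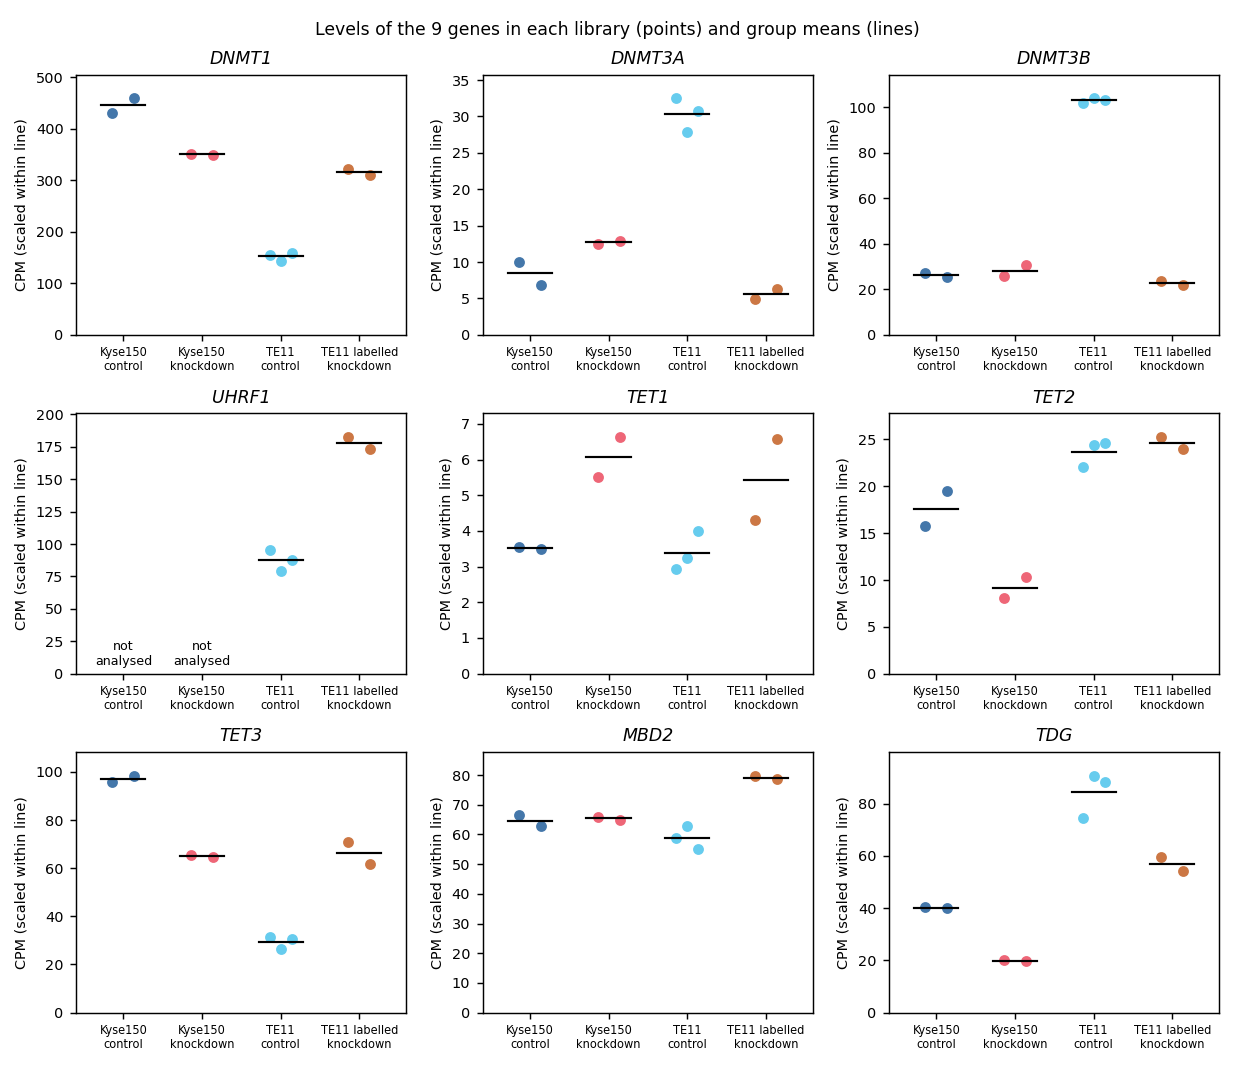
Level of each gene in every library, in CPM scaled within a line (vertical axes start at 0). Points are libraries, horizontal lines are group means, and the axis below names the 4 groups; UHRF1 was not analysed in Kyse150. DNMT3B lies at 102 to 104 CPM in the 3 TE11 controls and at 21.8 to 30.9 CPM in the other 6 libraries.

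The start sites of the 4 members that fell together in Kyse150 are shown because KDM2A binds DNA through CpG sites. Each sequence runs 5′ to 3′ on the gene's strand, from 250 bases before to 50 bases after a RefSeq start (GRCh38.p14), with every CpG in capitals. Where RefSeq gives several starts, the one nearest the gene's start in GENCODE release 29 was taken. For TET2 the starts coincide, for TDG and TET3 they lie 68 and 1494 bases apart, and the 1 RefSeq start of DNMT1 lies 36333 bases inside the GENCODE gene.
DNMT1, chr19:10194904-10195203, minus strand: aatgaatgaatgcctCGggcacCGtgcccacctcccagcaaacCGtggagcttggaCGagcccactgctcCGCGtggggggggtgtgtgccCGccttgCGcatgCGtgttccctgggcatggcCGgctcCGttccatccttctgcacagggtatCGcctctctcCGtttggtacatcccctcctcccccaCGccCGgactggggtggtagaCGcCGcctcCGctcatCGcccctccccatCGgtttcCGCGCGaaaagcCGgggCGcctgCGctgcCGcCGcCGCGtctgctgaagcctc
TET2, chr4:105145625-105145924, plus strand: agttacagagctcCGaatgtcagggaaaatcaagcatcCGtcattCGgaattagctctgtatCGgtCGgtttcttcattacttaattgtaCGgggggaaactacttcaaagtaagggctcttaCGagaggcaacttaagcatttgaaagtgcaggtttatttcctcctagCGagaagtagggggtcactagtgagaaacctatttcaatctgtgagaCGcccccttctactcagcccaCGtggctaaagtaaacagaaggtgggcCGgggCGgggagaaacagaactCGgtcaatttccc
TET3, chr2:73984660-73984959, plus strand: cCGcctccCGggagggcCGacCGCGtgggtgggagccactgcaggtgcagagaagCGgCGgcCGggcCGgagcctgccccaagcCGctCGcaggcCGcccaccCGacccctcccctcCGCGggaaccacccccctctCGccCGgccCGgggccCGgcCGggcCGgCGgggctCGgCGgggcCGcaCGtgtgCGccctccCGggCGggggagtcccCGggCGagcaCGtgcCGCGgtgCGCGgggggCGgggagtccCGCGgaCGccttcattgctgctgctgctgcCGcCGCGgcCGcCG
TDG, chr12:103965622-103965921, plus strand: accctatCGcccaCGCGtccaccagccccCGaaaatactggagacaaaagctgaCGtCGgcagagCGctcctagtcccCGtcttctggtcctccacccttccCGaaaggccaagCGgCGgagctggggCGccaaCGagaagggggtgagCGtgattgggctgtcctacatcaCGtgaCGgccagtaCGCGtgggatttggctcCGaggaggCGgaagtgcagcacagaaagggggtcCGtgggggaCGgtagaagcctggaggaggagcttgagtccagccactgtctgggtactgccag
These windows held 30 CpG sites at DNMT1, 13 at TET2, 45 at TET3 and 22 at TDG, against a median of 14 over 35116 RefSeq windows of the same length. Of the members tested in Kyse150 that did not fall, DNMT3B held 3 CpG sites, TET1 10, DNMT3A 18 and MBD2 32, so the counts of both kinds of member overlapped. The DNMT3B start lies 17467 bases from the GENCODE start. UHRF1's window held 36 and KDM2A's own 44. Counts over all RefSeq starts of a gene ran from 13 to 35 at TET2, 33 to 45 at TET3, 18 to 46 at DNMT3A, 6 to 11 at TET1, 36 to 46 at UHRF1 and 12 to 44 at KDM2A. The letters TTTNGCGC, a form of the site of the E2F cell cycle factors, were searched on both strands and found once, on the minus strand of the DNMT1 window, where the printed strand reads GCGCGAAA. They occurred in 1 of 9 member windows and in 1.79% of all windows. Other forms of the site were not searched, so a window without these letters may still hold one.

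The maintenance enzyme had the highest level per length of the 8 members in Kyse150. DNMT1 (ENSG00000130816, chromosome 19 from 10133345 to 10231286, GRCh38 by GENCODE release 29) measured 431 and 459 CPM in the controls and 350.5 and 349.4 CPM in the knockdowns. Both knockdowns lay below both controls. The level went from 445 ± 19.7 to 350 ± 0.829 CPM (SD, n = 2 each). The fitted ratio was 0.786, or -0.35 on the log2 scale (SE 0.06; edgeR adjusted p = 9.59e-06).

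DNMT1 and UHRF1 transcripts are known to peak in S phase, so genes of DNA replication are given beside DNMT1. Of 26 S-phase genes, 21 were lower and 0 higher in the knockdowns, with a median log2 fold change of -0.50. RRM2, a ribonucleotide reductase subunit, stood at 0.493 of control, the helicase subunit MCM5 at 0.549 and the checkpoint mediator CLSPN at 0.398. Their summed level went from 4966 to 5061 CPM in the controls to 3501 to 3542 CPM in the knockdowns, and the part of a smaller S-phase fraction in the DNMT1 value was not tested. Of 10 partners of maintenance methylation, 6 were lower and 0 higher. PCNA, the sliding clamp of replication, stood at 0.677 of control, BEND3, a chromatin repressor, at 0.466 and CDCA7, which activates the remodeler HELLS, at 0.737.

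The de novo methyltransferases did not fall with DNMT1. DNMT3B (ENSG00000088305, chromosome 20 from 32762385 to 32809356) measured 27.3 and 25.4 CPM in the controls and 25.6 and 30.9 CPM in the knockdowns. The groups overlapped, and the fitted ratio of 1.07 has a 95% interval of 0.879 to 1.30 (edgeR adjusted p = 0.588). DNMT3A (ENSG00000119772, chromosome 2 from 25227855 to 25342590) measured 10.1 and 6.85 CPM in the controls and 12.5 and 12.9 CPM in the knockdowns, on 47 to 84 counts per library. Control replicate 2 was the lowest of the 4 libraries. The fitted change of DNMT3A was 0.59 on the log2 scale (SE 0.21; edgeR adjusted p = 0.024). With control replicate 2 left out this became 0.33 (edgeR adjusted p = 0.299), with knockdown replicate 2 left out 0.56 (0.0639) and in DESeq2 0.58 (0.173), none of which passed. With control replicate 1 left out it was 0.89 and passed (edgeR adjusted p = 0.00577).

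Of 5 tested genes of the other methyltransferase family members and de novo partners, 3 were lower and 1 higher in Kyse150. QSER1, which is known to keep de novo enzymes off bivalent promoters, stood at 0.700 of control, the H3 methyltransferase SETD2 at 0.757, and TRDMT1, a tRNA methyltransferase of the same family, at 0.590. MAT2A, which makes the methyl donor S-adenosylmethionine, went from 384 to 166 CPM, or -1.21 in log2 units (SE 0.06; edgeR adjusted p = 3.2e-15). Of 8 tested genes of methyl donor supply, 2 were lower and 1 higher.

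The 3 TET genes moved in different directions in Kyse150. TET3 (ENSG00000187605, chromosome 2 from 73986404 to 74108176), the most abundant of the 3 per length, measured 96.0 and 98.4 CPM in the controls and 65.4 and 64.7 CPM in the knockdowns. It stood at 0.670 of control (log2 fold change -0.58, SE 0.08; edgeR adjusted p = 2.28e-06). TET2 (ENSG00000168769, chromosome 4 from 105145875 to 105279816) measured 15.7 and 19.5 CPM in the controls and 8.05 and 10.4 CPM in the knockdowns, 0.521 of control (-0.94, SE 0.19; edgeR adjusted p = 0.000245). For both genes every knockdown lay below every control.

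TET1 (ENSG00000138336, chromosome 10 from 68560656 to 68694482) measured 3.54 and 3.50 CPM in the controls and 5.51 and 6.63 CPM in the knockdowns, on 24 to 41 counts per library. The fitted change was 0.78 on the log2 scale (SE 0.29; edgeR adjusted p = 0.0283). TET1 no longer passed with either control omitted (0.78, edgeR adjusted p = 0.0805 for replicate 1; 0.77, 0.0831 for replicate 2), with knockdown replicate 2 omitted (0.64, 0.171) or in DESeq2 (0.78, 0.209). Of 11 tested genes of TET cofactor supply and regulation, 4 were higher and 2 lower. OGT, which binds TET proteins, stood at 1.80 times control, IDH2, a source of the cosubstrate 2-oxoglutarate, at 1.77 times, and IDH3A at 0.649 of control.

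TDG (ENSG00000139372, chromosome 12 from 103965804 to 103988874), which excises oxidised methylcytosine and thymine mismatched with guanine, fell by about as much as TET2. It measured 40.4 and 40.1 CPM in the controls and 20.3 and 19.6 CPM in the knockdowns. The level went from 40.2 ± 0.202 to 19.9 ± 0.494 CPM (SD, n = 2 each), 0.496 of control (log2 fold change -1.01, SE 0.13; edgeR adjusted p = 3.29e-07). The pseudogene TDGP1 held 2 to 8 counts per Kyse150 library, and reads shared with such copies can be missing from TDG. Of 15 genes of base excision repair, other glycosylases and the GADD45 family, 3 were lower and 1 higher. The glycosylase UNG stood at 0.771 and the endonuclease APEX1 at 0.792 of control, and GADD45A, a DNA damage response gene, at 1.45 times control.

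MBD2 (ENSG00000134046, chromosome 18 from 54151601 to 54224788) measured 66.4 and 62.8 CPM in the controls and 65.9 and 65.0 CPM in the knockdowns. The groups overlapped, and the ratio of 1.01 has a 95% interval of 0.890 to 1.15 (edgeR adjusted p = 0.885). Of 9 other genes of the methyl-CpG binding domain and zinc finger reader families, 3 were higher and 2 lower. Not all of these are known to bind methylated CpG sites, MBD3 among them. ZBTB4, a zinc finger reader, stood at 2.1 times control, MBD3 at 0.784 and ZBTB38 at 0.685. Of 12 NuRD subunits, 4 were higher and 6 lower, with MTA2 at 0.660, HDAC2 at 0.678 and the remodeler CHD3 at 1.36 times control.

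**Figure D2:**
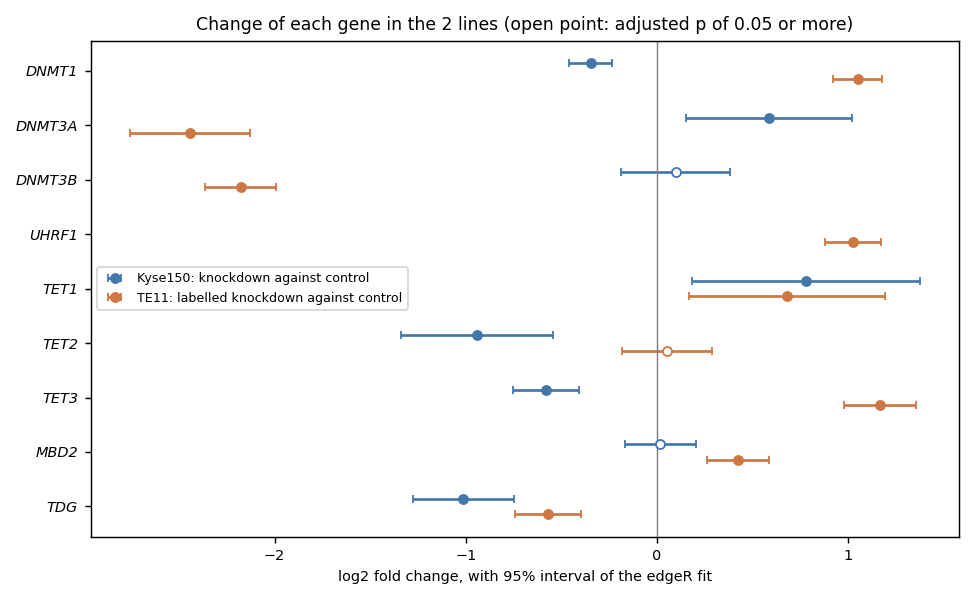
log2 fold change of each gene (horizontal axis) in the knockdown or labelled knockdown libraries against the controls of the same line, with the 95% interval of the edgeR fit. Filled points have an adjusted p under 0.05. DNMT1 and TET3 lie below 0 in Kyse150 and above 0 in TE11, and TDG lies below 0 in both.

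In TE11 the libraries labelled knockdown had lower DNMT3A and DNMT3B, at 0.184 and 0.221 of control, and about 2-fold higher DNMT1, UHRF1 and TET3. TDG was lower and MBD2 higher by smaller factors, and TET2 did not pass the test. Of 9 members tested, 5 were higher and 3 lower, where 35.9% of all 16453 genes tested were higher and 42.2% lower. The median log2 fold change was 0.43 over the members and -0.09 over all genes tested. A call was thus common in this comparison, for the members as for all genes.

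The de novo enzymes set the TE11 controls apart. DNMT3B measured 102, 104 and 103 CPM in the controls and 23.7 and 21.8 CPM in the libraries labelled knockdown. The level went from 103 ± 1.2 (SD, n = 3) to 22.8 ± 1.37 CPM (SD, n = 2), or -2.18 in log2 units (SE 0.09; edgeR adjusted p = 2.97e-25). DNMT3A measured 32.5, 27.8 and 30.8 CPM in the controls and 4.89 and 6.23 CPM in the libraries labelled knockdown (log2 fold change -2.44, SE 0.16; edgeR adjusted p = 9.86e-19). For both genes the groups were far apart relative to the spread within them. The other family members and de novo partners went the opposite way, with 5 of 5 tested genes higher. QSER1 stood at 5.83 times control and the H3 methyltransferase NSD1 at 2.67 times, while TRDMT1 went from 17 counts in all controls to 336 counts in the 2 libraries labelled knockdown.

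The maintenance pair rose together in the libraries labelled TE11 knockdown. DNMT1 measured 155, 143 and 159 CPM in the controls and 321 and 310 CPM in the labelled knockdowns, 2.07 times control (log2 fold change 1.05, SE 0.06; edgeR adjusted p = 1.5e-19). UHRF1 (ENSG00000276043, chromosome 19 from 4903080 to 4962154), which reads half-methylated CpG sites and ubiquitinates histone H3, measured 95.4, 79.0 and 87.7 CPM in the controls and 183 and 173 CPM in the labelled knockdowns. It stood at 2.04 times control (1.03, SE 0.07; edgeR adjusted p = 4.34e-17). For both genes every labelled knockdown exceeded every control.

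S-phase genes moved with them: of 26, 22 were higher and 2 lower, with a median log2 fold change of 0.66. Their summed level was 3097 to 3212 CPM in the controls and 4774 to 4842 CPM in the libraries labelled knockdown. RRM2 stood at 3.23 times control and MCM3 at 2.64 times, whereas the thymidylate synthase TYMS stood at 0.302. The part of cell cycle distribution in the DNMT1 and UHRF1 values was not tested. Of the 10 maintenance partners, 4 were higher and 2 lower. UHRF2, the paralog of UHRF1, stood at 2.24 times control, CDCA7 at 0.544 and the ligase LIG1 at 0.550.

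TET3 measured 31.4, 26.5 and 30.6 CPM in the TE11 controls and 70.8 and 61.9 CPM in the libraries labelled knockdown, 2.24 times control (log2 fold change 1.17, SE 0.09; edgeR adjusted p = 2.53e-15). TET2 measured 22.1, 24.4 and 24.6 CPM in the controls and 25.3 and 24.0 CPM in the labelled knockdowns. Its groups overlapped, and the ratio of 1.04 has a 95% interval of 0.883 to 1.22 (edgeR adjusted p = 0.676). TET1 was low in TE11 as well, at 2.92, 3.23 and 4.01 CPM in the controls and 4.31 and 6.56 CPM in the labelled knockdowns (log2 fold change 0.68, SE 0.25; edgeR adjusted p = 0.014). TET1 no longer passed when labelled knockdown replicate 2 was omitted (0.35; edgeR adjusted p = 0.365), nor in DESeq2 (0.67; 0.0683). Of 12 genes of TET cofactor supply and regulation, 7 were lower and 4 higher. IDH1, OGT and D2HGDH, which clears a competitor of 2-oxoglutarate, stood at 0.315, 0.332 and 0.293 of control.

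TDG measured 74.3, 90.6 and 88.2 CPM in the TE11 controls and 59.6 and 54.2 CPM in the libraries labelled knockdown, 0.674 of control (log2 fold change -0.57, SE 0.09; edgeR adjusted p = 1.15e-07). Of 14 tested genes of base excision repair, other glycosylases and the GADD45 family, 10 were lower and 1 higher. The glycosylases NEIL3 and MBD4 stood at 0.358 and 0.538 of control and SMUG1 at 1.94 times. MBD2 measured 58.8, 62.9 and 55.1 CPM in the controls and 79.7 and 78.7 CPM in the labelled knockdowns, 1.34 times control (0.43, SE 0.08; edgeR adjusted p = 7.08e-06). Among the 9 other genes of the methyl-CpG binding domain and zinc finger reader families, 5 were higher and 3 lower. MBD3 stood at 3.50, MBD1 at 3.14 and ZBTB38 at 2.25 times control. Of 12 NuRD subunits, 3 were higher and 6 lower, with CHD3 at 0.481, GATAD2B at 0.594 and GATAD2A at 1.55 times control.

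**Figure D3:**
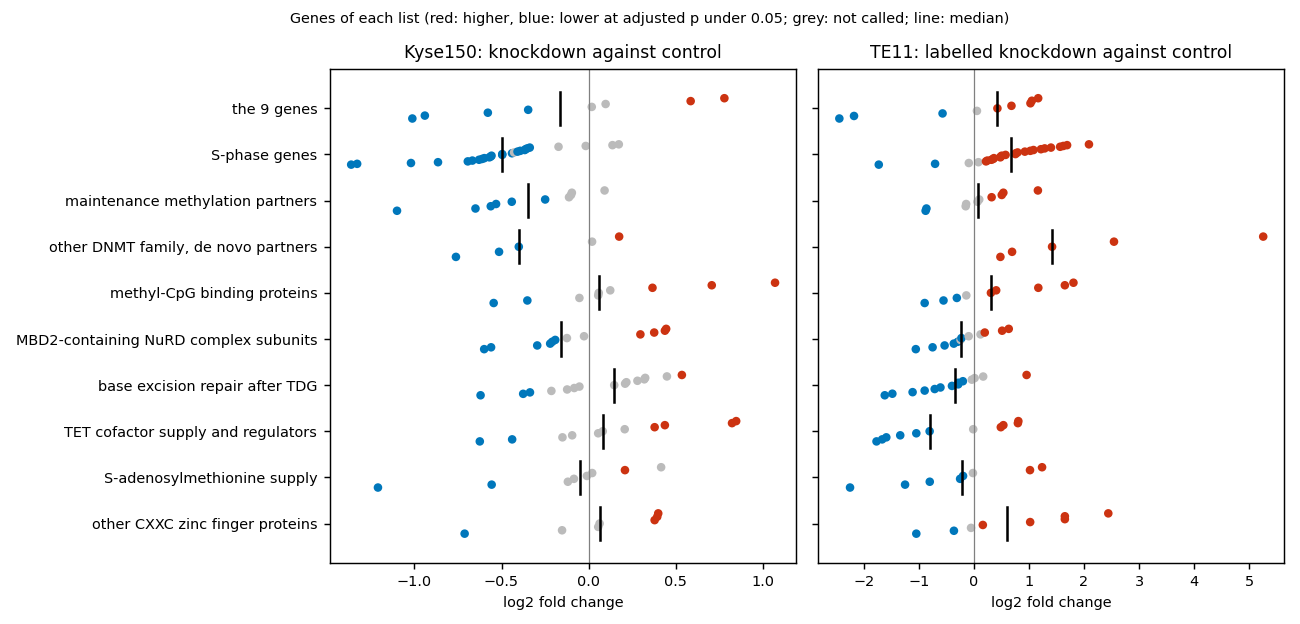
log2 fold change (horizontal axis) of tested genes of 10 lists (the members first) in each line, with the medians of the genes drawn as vertical lines; colours give the direction of genes with an adjusted p under 0.05, and genes at 0 in a group are not drawn. The median of the S-phase genes is -0.50 in Kyse150 and 0.66 in TE11.

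Methyl donor genes and other CXXC proteins were compared in the same libraries. MAT2A was lower in TE11 as well, at 503 CPM in the controls and 212 CPM in the libraries labelled knockdown (log2 fold change -1.25, SE 0.06; edgeR adjusted p = 1.87e-22), while AHCY, which clears the product of methylation, and MTR, which remakes methionine, stood at 2.02 and 2.36 times control. Of 8 tested donor supply genes, 5 were lower and 2 higher. The CXXC protein KMT2A, an H3 methyltransferase, stood at 1.31 times control in the Kyse150 knockdowns and 5.42 times in the libraries labelled TE11 knockdown. FBXL19, a relative of KDM2A, stood at 1.32 times control in Kyse150. CXXC1, which recruits an H3 methyltransferase to CpG islands, stood at 3.14 times in TE11. Of the CXXC list, 3 of 7 tested genes were higher and 1, KDM2A itself, lower in Kyse150, and 5 of 9 were higher and 3 lower in TE11.

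Germline genes whose promoters are methylated in somatic tissue were mostly silent. Of 12 such genes, 8 held no counts in any Kyse150 library and 6 held none in any TE11 library, DAZL, DDX4 and MAEL among both. SYCP3, the 1 germline gene tested in Kyse150, had 41 control and 31 knockdown counts (edgeR adjusted p = 0.57). In TE11, SYCP3 did not pass either, with 88 control and 61 labelled knockdown counts, or 2.53 and 3.46 CPM (edgeR adjusted p = 0.174). HORMAD1, a meiotic chromosome protein, had 959 counts over the TE11 controls and 0 over the labelled knockdowns. That is at least 162-fold lower against a floor of 3 counts over the group. HORMAD1 was also among the 8 genes without counts in any Kyse150 library. STK31 held 138 counts in the TE11 controls and 5 in the labelled knockdowns. DNA methylation itself was not measured.

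The response of each member was then compared between the lines in 1 fit of all 9 libraries, as the TE11 change minus the Kyse150 change. Of 8 members in both tables, 7 differed, where 66.9% of 15895 genes tested differed. DNMT1 (log2 difference 1.42, SE 0.09; edgeR adjusted p = 2.14e-22) and TET3 (1.77, SE 0.13; edgeR adjusted p = 1.1e-18) fell in Kyse150 and rose in TE11. DNMT3A (-3.01, SE 0.26; edgeR adjusted p = 1.04e-15) fell in TE11 and rose in Kyse150, where its call did not hold in every fit. DNMT3B (-2.25, SE 0.16; edgeR adjusted p = 1.78e-19) fell in TE11 and did not pass in Kyse150. TDG fell in both lines and by more in Kyse150, with a difference of 0.47 (SE 0.16; edgeR adjusted p = 0.00704). TET1 did not differ detectably (-0.08, 95% interval -0.87 to 0.72; edgeR adjusted p = 0.914), an interval that leaves room for a change of either sign.

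Levels were set side by side across the 4 groups on a common scaling of the genes in both tables. The line and the count table, made with different gene annotations, cannot be told apart here, so these values are descriptions. DNMT1 was highest in the Kyse150 controls at 437 ± 19.4 CPM (SD, n = 2), followed by the Kyse150 knockdowns at 342 ± 0.738 (SD, n = 2), the libraries labelled TE11 knockdown at 331 ± 9.08 (SD, n = 2) and the TE11 controls at 158 ± 8.55 (SD, n = 3), and no neighbours in that order overlapped. TET3 had the Kyse150 controls on top at 95.4 ± 1.64 CPM (SD, n = 2), the libraries labelled TE11 knockdown at 69.5 ± 6.80 (SD, n = 2), the Kyse150 knockdowns at 63.5 ± 0.491 (SD, n = 2) and the TE11 controls at 30.6 ± 2.67 (SD, n = 3). Its neighbours did not overlap either.

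For the de novo enzymes the TE11 controls, lowest for DNMT1 and TET3, were the highest group. DNMT3B stood at 107 ± 1.33 CPM in the TE11 controls (SD, n = 3), at 27.6 ± 3.64 in the Kyse150 knockdowns (SD, n = 2), at 25.9 ± 1.37 in the Kyse150 controls (SD, n = 2) and, lowest, at 23.9 ± 1.51 in the libraries labelled TE11 knockdown (SD, n = 2). The last 3 groups overlapped with their neighbours. DNMT3A stood at 31.5 ± 2.41 CPM in the TE11 controls (SD, n = 3), 12.4 ± 0.293 in the Kyse150 knockdowns (SD, n = 2), 8.30 ± 2.22 in the Kyse150 controls (SD, n = 2) and, lowest, 5.82 ± 0.977 in the libraries labelled TE11 knockdown (SD, n = 2), with no overlap between neighbours. In these 4 genes the libraries labelled TE11 knockdown lay nearer in mean level to the Kyse150 controls than to the TE11 controls, as in 65.4% of all genes tested.

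TDG and TET2 did not follow that order. TDG stood at 87.4 ± 9.14 CPM in the TE11 controls (SD, n = 3), 59.6 ± 4.18 in the libraries labelled TE11 knockdown (SD, n = 2), 39.5 ± 0.194 in the Kyse150 controls (SD, n = 2) and 19.4 ± 0.478 in the Kyse150 knockdowns (SD, n = 2), with no overlap. TET2 stood at 25.8 ± 0.984 CPM in the libraries labelled TE11 knockdown (SD, n = 2) and 24.6 ± 1.49 in the TE11 controls (SD, n = 3), which overlapped, then at 17.3 ± 2.64 in the Kyse150 controls (SD, n = 2) and 8.98 ± 1.59 in the Kyse150 knockdowns (SD, n = 2). Both genes had both TE11 groups above both Kyse150 groups. MBD2 spanned 61.1 to 83.0 CPM over the 4 group means, and only the libraries labelled TE11 knockdown stood clear of their neighbour. TET1 spanned 3.45 to 5.93 CPM, with both control groups overlapping and the Kyse150 knockdowns overlapping the libraries labelled TE11 knockdown. Of the 8 members, 5 were nearer in mean level to the Kyse150 controls and 3 (TET1, TET2 and TDG) to the TE11 controls in the libraries labelled TE11 knockdown. TET1, MBD2 and TDG were near ties. Their log2 differences from the Kyse150 and the TE11 controls were 0.721 and 0.698 for TET1, 0.388 and 0.441 for MBD2, and 0.594 and -0.553 for TDG. Over all 15895 genes tested, 65.4% were nearer to the Kyse150 controls. The members were compared by log2 of the mean CPM, and all genes by log2 of the mean CPM plus 1.

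Levels per length, in CPM per kilobase of exon by GENCODE release 29, allow the genes of a family to be compared. DNMT1 made up 86.7% and 88.6% of the summed level of the 3 DNA methyltransferases in the Kyse150 controls, 84.5% and 82.2% in the knockdowns, and 85.6% and 85.8% in the libraries labelled TE11 knockdown. In the TE11 controls DNMT3B had the largest share at 54.3% to 57.1%, with DNMT1 at 37.0% to 39.5% and DNMT3A at 5.89% to 6.68%. DNMT3A was 1.06% to 2.48% in the other 6 libraries. The order of DNMT3B and DNMT1 rests on the lengths used, 4.63 and 9.796 kilobases, which pool the exons of all annotated transcripts. Before division by length DNMT1 was the higher of the 2 in the TE11 controls, at 152 against 103 CPM. Which transcripts were expressed was not examined. The summed level was 50.8 and 52.9 CPM per kilobase in the Kyse150 controls and 36.9 to 43.4 in the other 7 libraries, so the TE11 groups differed more in makeup than in sum. Among the TET genes TET3 led in every library, from 54.1% to 85.4% of the summed level per kilobase. TET2 reached 31.8% to 37.1% in the TE11 controls, against 7.62% to 20.2% in the other 6 libraries. TET1 was 3.93% to 10.8% in all 9.

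**Figure D4:**
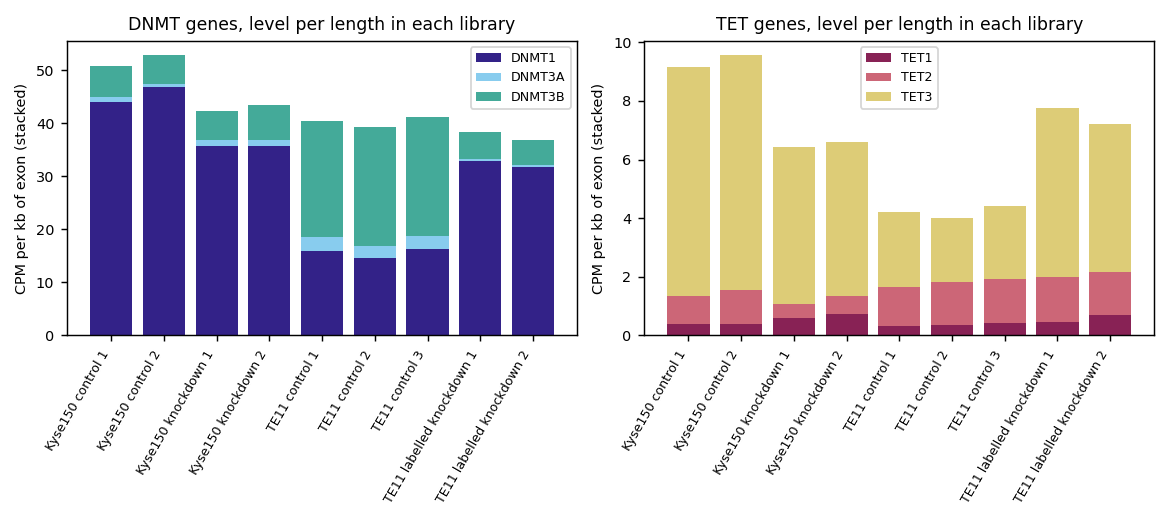
Stacked level per kilobase of exon of the 3 DNMT genes (left) and the 3 TET genes (right) in each of the 9 libraries. DNMT3B takes 54.3% to 57.1% of the DNMT level in the TE11 controls, and TET3 is the largest TET segment in every library.

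The protein-coding genes most like each member over the 9 libraries were found among 9363 candidates with a mean of 10 CPM or more. Likeness was the mean absolute difference of log2(CPM + 1) after centring each gene on its own mean, so 0 is an identical profile. For DNMT1 these were CREBBP, a histone acetyltransferase, at 0.03 and PRPF8, a spliceosome protein, at 0.04. For DNMT3B they were PCDH7, a protocadherin, at 0.05 and MBTD1 at 0.08. TET3 was followed by PFAS, an enzyme of purine synthesis, at 0.06 and SGTA at 0.07, and TDG by the proteasome subunit PSMC6 at 0.06 and LRR1 at 0.08. MBD2 was followed by SNAP23 at 0.05 and PIGC at 0.06, and TET2 by BRIX1, a ribosome assembly factor, at 0.08 and HNRNPA3 at 0.08. The nearest profiles were less close for the lowly expressed TET1 (ACVR1 at 0.10, BTRC at 0.11) and DNMT3A (ABCC10 at 0.12, TESMIN at 0.13). The 9 libraries share 4 groups, so that a profile is mostly a set of 4 group levels.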

How the data were processed

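Polyadenylated RNA of 9 libraries was sequenced, and groups and replicate numbers were read from the sample titles. The authors deposited raw counts of fragments per Ensembl gene, with a table for each line. HTSeq 0.9.1, HISAT2 2.1.0, bcl2fastq 2.19 and DESeq2 appear in the submitters' processing notes, as do builds GRCh37.p13 and GRCh38.p13, without a link to either table. Whether counting used strand is not stated there. HTSeq summary rows were kept out of library sizes: fragments on no gene were 42.3% to 44.5% of a column. DNMT1 shares 83 exon bases with S1PR2, and no other member shares exon bases with another gene of GENCODE release 29.

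Symbols came from a gene name table and GENCODE release 29 (90.5% of Kyse150 identifiers). Genes passed filterByExpr (minimum count 10, total 15), were scaled by TMM and tested with edgeR 4.0.16 (robust quasi-likelihood, R 4.3.3), each line fitted alone. P-values were adjusted by Benjamini-Hochberg across every gene in a fit, and called under 0.05. The comparison between lines used 1 fit of all 9 libraries. On simulated data the procedure recovered 81.4% of 97 genes changed 2-fold and 58.2% of 98 changed 1.5-fold in Kyse150. In TE11 it recovered 87% and 73% of 100 genes each. False calls were 2.86% of calls in Kyse150 and 4.76% in TE11. Far fewer genes were changed there than were called in the real data, so scaling under such wide change was not tested. Named genes were the members, KDM2A, the 3 genes of smallest p per pathway list and line, and the 2 most similar profiles per member. Marker lists are given by their sums, and the squamous list by its calls as well. TP63, CSF1R, KRT5, EGFL7 and the genes named as being at 0 fall outside this and were chosen after their values were seen. The members and lists were chosen with earlier results of these data known. KMT2B had 0 counts in Kyse150 and is not described. Replicates differed by more than counting noise (chi-square per degree of freedom 1.62 to 4.91), and floors cover counting error only.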

Additional observations from a re-analysis of the deposited data

Results flagged for a closer look

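The change between control and knockdown label differed between the 2 lines for 7 of 8 members, by the test of the difference itself in 1 edgeR fit of all 9 libraries (TE11 change minus Kyse150 change, log2). The KDM2A level goes against the label of the TE11 libraries, so these values compare libraries as labelled. The response was higher in TE11 for DNMT1 by 1.42, TET3 by 1.77, TET2 by 1.02, TDG by 0.47 and MBD2 by 0.43. It was lower for DNMT3A, at -3.01, and DNMT3B, at -2.25. Over all genes tested, 66.9% differed in this way.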

How the results depend on the processing

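Of 323 member values refitted under the alternatives, 306 kept their direction and their side of the threshold, 9 lost the call and 8 changed sign. The 9 lost calls were those of DNMT3A in Kyse150 and TET1 in both lines, given with their values above; their cause was not tested. Each sign change was in a value that had not passed: DNMT3B in Kyse150 (-0.043 to 0.226 with 1 library left out), MBD2 in Kyse150 (-0.026 to 0.055), TET2 in TE11 (-0.0020 to 0.100, and -0.0054 with upper quartile scaling) and the TET1 difference between lines (-0.41 to 0.19, and 0.051 with the replicate block). Where this left 1 library in a group, that library is assumed to vary like the others. Such fits lost the calls of DNMT3A in Kyse150 and of TET1 in both lines, and of no other member. Leaving out each TE11 control in turn called 8 members in TE11, where 12103 to 12596 of 15907 to 15950 genes were called. For the difference it called 7 members, where 10307 to 10533 of 15578 to 15582 genes were called. DESeq2 called 4, 7 and 7 members in Kyse150, in TE11 and for the difference. Over all genes it called 4337 of 14060 in Kyse150, where edgeR called 6771. It called 11893 of 16453 genes in TE11 and 10419 of 15895 for the difference. Upper quartile scaling moved the median of all genes for the difference from -0.06 to -0.18 and changed no member's call.

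The titles share replicate numbers, but nothing says what a number stands for. With the replicate block, 6, 8 and 7 members were called in Kyse150, in TE11 and for the difference, as without it. Over all genes, 6395, 12218 and 10211 were called in the same fits. Deviations of same-numbered libraries correlated at -0.15 in Kyse150 and at -0.02 and 0.00 in TE11. A crossed pairing in Kyse150, added after seeing the data, called 6 members and 7372 genes. TET1 and DNMT3A rest on the fewest counts of the members, 24 to 59 and 42 to 368 per library, which limits both.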
